A study of Gallus gallus with 5 samples.

Results

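The genes described here are 2 binding proteins of the insulin-like growth factors (IGFBP1 and IGFBP2), the growth hormone receptor (GHR), the prolactin receptor (PRLR) and CISH, an inhibitor of signalling by such receptors. They are the 5 rows of a liver count table of 6286 entries that carry these symbols. The set was put together from the contrast between feeding levels in these same hens, so the differences between the groups are given as descriptions, and the counts of calls among the 5 genes are no independent evidence. All 5 genes passed the filter on low counts that left 4309 genes.

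The livers came from hens of a broiler breeder flock, kept to produce chicks for meat, that were allowed either unlimited feed (FF, 2 hens) or a restricted allowance (RF, 3 hens) from 38 weeks of age. The labels give no genotype or line beyond this, no length of feeding and no age at sampling. Each library came from a different hen, and a further FF hen that the extraction protocol counts was not analysed here. Whole liver RNA was sequenced, so fewer cells of a type and less RNA per cell cannot be told apart.

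The liver is the main source of circulating insulin-like growth factor 1 and of several of the proteins that bind it. Growth hormone and prolactin bind receptors of one family, which act through the kinase JAK2 and the transcription factor STAT5, and CISH is both a target of STAT5 and a brake on it in mammals. In mammals the liver makes more IGFBP1 and IGFBP2 in fasting, and insulin represses IGFBP1 transcription. In birds, feed deprivation is known to raise growth hormone in blood while lowering insulin-like growth factor 1.

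Library totals ran from 2666609 (FF2) to 4622392 (FF1) estimated counts, and levels are given as CPM, the usual per-library scaling of counts (here to the TMM-scaled library size). FF2 was the shallowest library and correlated least with the others across genes (Pearson r 0.877 to 0.922). Of 14 hepatocyte markers 13 had a row, and their summed level lay between 121546 and 150169 CPM in the 5 hens. Single markers differed in both directions. CYP2C18 stood at 82.05 and 264 CPM in FF1 and FF2, against 843.9, 2115 and 2416 CPM in RF1, RF2 and RF3. APOA1 stood at 30580 and 19220 CPM in FF1 and FF2, against 9466, 15920 and 7209 CPM in RF1, RF2 and RF3. ALB was listed at 0 in every hen. Because a gene so abundant in liver stood at 0, a 0 in the table was read only as listed at 0.

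IGFBP2 and IGFBP1, which carry insulin-like growth factors in blood and limit their access to receptors, were both lower in every FF liver than in any RF liver. IGFBP2 stood at 36.5 CPM in FF1 and 13.1 CPM in FF2, against 415 CPM in RF1, 491 CPM in RF2 and 134 CPM in RF3. The lowest RF hen thus lay well above the higher FF hen, and RF3 lay apart from the other RF hens on the low side. The FF mean was 24.8 ± 16.6 CPM (SD, n = 2), compared with an RF mean of 347 ± 188 CPM (SD, n = 3). The log2 fold change, always given as FF over RF, was -3.78 ± 0.72 (SE), or 13.8-fold lower. The log2 fold change was -4.73 without FF1, -3.23 without FF2 and -4.17 without RF3.

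IGFBP1 stood at 40.0 CPM in FF1 and 17.1 CPM in FF2, against 94.2 CPM in RF1, 127 CPM in RF2 and 438 CPM in RF3. Here RF3 was the highest hen of all, where it had been the lowest RF hen for IGFBP2, and again the groups did not overlap. The mean in FF was 28.5 ± 16.2 CPM (SD, n = 2), compared with 219.8 ± 189 CPM (SD, n = 3) for RF, and the fold change on the log2 scale was -2.93 ± 0.77 (SE), or 7.61-fold lower in FF. Without RF3 it was -1.94, without FF1 -3.69 and without FF2 -2.45. Within RF the highest hen exceeded the lowest 4.65-fold for IGFBP1 and 3.66-fold for IGFBP2. Counting intervals, which take the estimated counts as unscaled read counts, were narrow beside these gaps. The 1873 estimated counts of IGFBP1 in RF3 had an exact 95% Poisson interval of 1789 to 1960, and the 400 in RF1 one of 361.8 to 441.2.

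**Figure D1:**
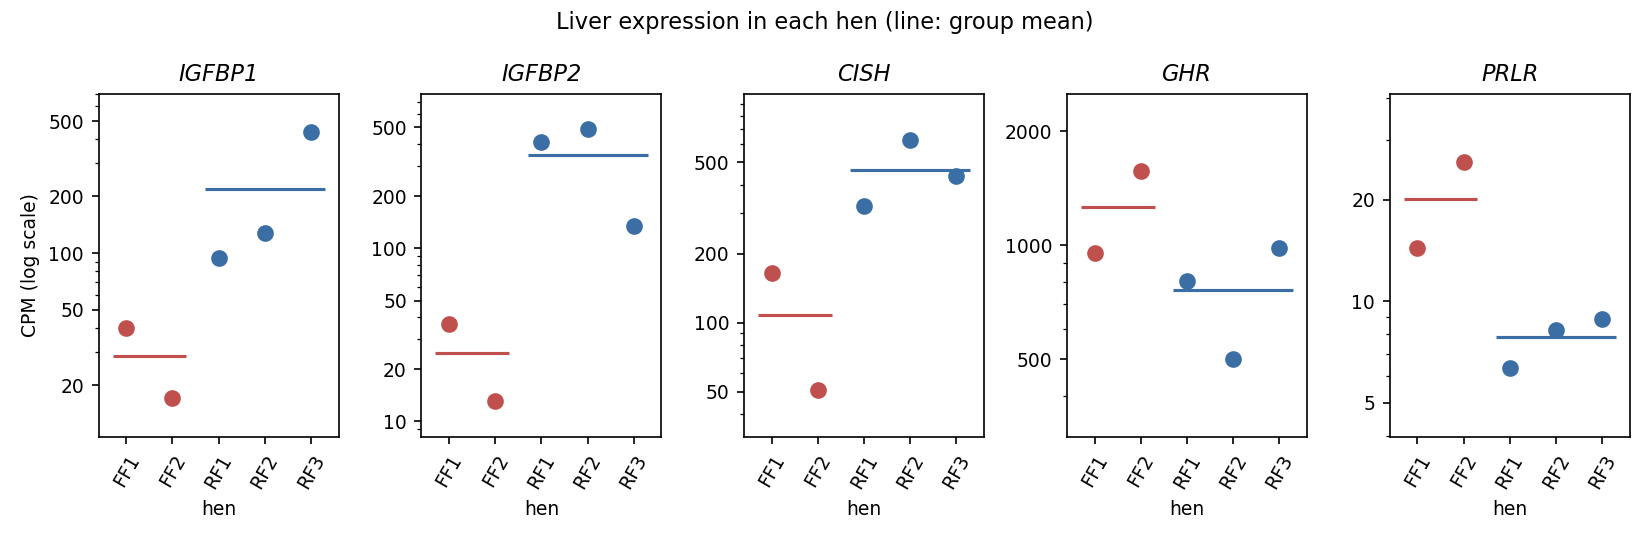
CPM of the 5 genes in each hen, on a log axis of its own for each gene, with FF hens in red, RF hens in blue and a line at each group mean. IGFBP1, IGFBP2 and CISH lie lower in both FF hens and PRLR lies higher, while GHR at 956 CPM in FF1 falls below the 984 CPM of RF3.

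The summed level of the 2 binding proteins varied far less among the RF hens than either gene alone, a comparison chosen after the values were seen. The sum was 509 CPM in RF1, 619 CPM in RF2 and 572 CPM in RF3, against 76.5 CPM in FF1 and 30.2 CPM in FF2. What differed more within RF was the split, and that rested on RF3. IGFBP1 made up 18.5% of the counts of both genes in RF1 (exact binomial 95% interval 16.9% to 20.2%) and 20.6% in RF2 (18.9% to 22.4%), but 76.5% in RF3 (74.8% to 78.2%). The FF hens lay between these, at 52.3% in FF1 (47.1% to 57.5%) and 56.6% in FF2 (45.3% to 67.5%). Neither the sums nor the shares are corrected for transcript length, so they are read only from hen to hen. The evenness of the sum within RF depends on the equal weight given to both genes. The intervals of the shares cover counting error alone. RF3 also differed from the other RF hens in the fatty acid synthase gene FASN, at 7619.7 CPM against 1001 CPM in RF1 and 644 CPM in RF2, while FF1 stood at 10845 CPM and FF2 at 15948 CPM.

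**Figure D2:**
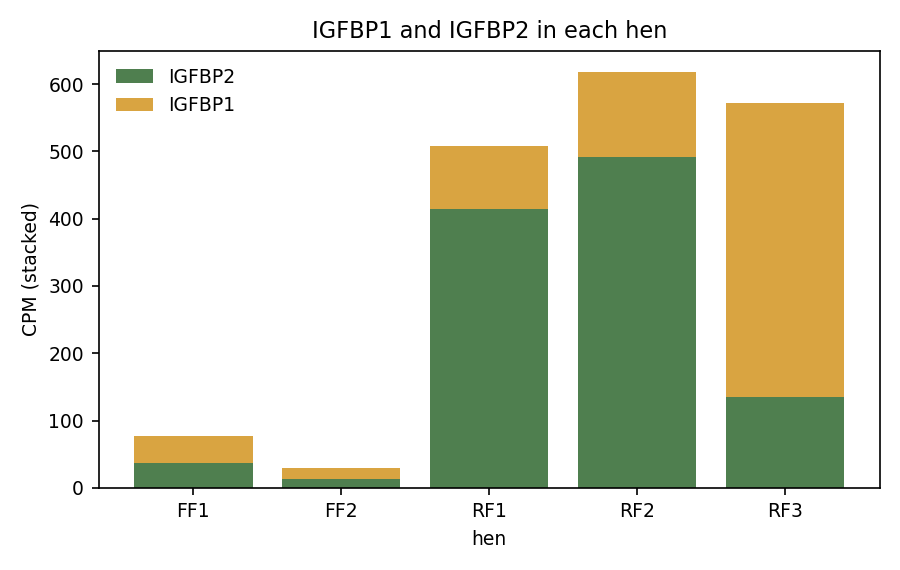
Stacked bars of IGFBP2 (green) and IGFBP1 (yellow) in CPM for each hen. The 3 RF bars reach 509 to 619 CPM and the FF bars 76.5 and 30.2 CPM, and IGFBP1 fills 76.5% of the counts in RF3 but 18.5% and 20.6% in RF1 and RF2.

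Summed markers of fat cells and endothelium moved with these values in part, but not every single marker did. The summed level of the 5 adipocyte markers was 661 CPM in RF1 and 807 CPM in RF2 but 177 CPM in RF3, 249 CPM in FF1 and 116 CPM in FF2, the same high pair as for IGFBP2. Nearly all of it came from PLIN1 and CIDEC. ADIPOQ had 10 to 30 estimated counts per hen, FABP4 1 to 54 and LPL 1 to 3. PLIN1 and CIDEC were each highest in RF1 and RF2. ADIPOQ went the other way on its few counts, with its lowest CPM in RF1 and RF2 and its highest in FF1. FABP4 was highest in RF2 at 15.9 CPM, but FF2 at 4.73 CPM lay above RF1 at 2.35 CPM. LPL was highest in RF2 and RF1, on its few counts. The high pair in the sum mostly describes PLIN1 and CIDEC, and whether it follows fat cell content was not tested. The 3 of 8 endothelial markers with a row summed to 161 and 202 CPM in the FF hens and to 271 to 318 CPM in the RF hens. None of the 3 was listed at 0. KDR and LYVE1 were lower in both FF hens than in any RF hen. CDH5 overlapped, at 142.5 CPM in FF2 against 141 CPM in RF1 and 138.6 CPM in RF2. Sums of other marker lists also differed between hens. Stellate and fibroblast markers summed to 1264 CPM in FF1 and to 505 to 751 CPM in the other hens. Erythrocyte markers summed to 516 CPM in RF3 and to 1233 to 2028 CPM in the others. Macrophage markers ran from 555 CPM in FF2 to 1106 CPM in RF2. The part of any cell type in the binding protein values was not tested.

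CISH, which binds activated cytokine receptors through its SH2 domain and dampens STAT5 signalling, was lower in FF. It stood at 165 CPM in FF1 and 50.9 CPM in FF2, against 324 CPM in RF1, 625 CPM in RF2 and 434 CPM in RF3. The groups did not overlap, and RF2 was the highest hen. Hens of the FF group averaged 108 ± 80.9 CPM (SD, n = 2) and those of the RF group 461 ± 152 CPM (SD, n = 3), which is -2.09 ± 0.56 (SE) on the log2 scale, or 4.25-fold lower. The size depended on which FF hen was kept, as the log2 fold change was -3.18 without FF1 and -1.47 without FF2.

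GHR, which binds growth hormone, was the one gene of the 5 whose groups overlapped. It stood at 956 CPM in FF1 and 1574 CPM in FF2, against 806 CPM in RF1, 499 CPM in RF2 and 984 CPM in RF3. FF2 was the highest and RF2 the lowest, with the other 3 hens close together between them. The averages were 1265 ± 437 CPM (SD, n = 2) for FF and 763 ± 245 CPM (SD, n = 3) for RF, 0.73 ± 0.39 (SE) apart on the log2 scale. That value was 0.34 without FF2 and 0.50 without RF2.

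PRLR, which binds prolactin, rested on few counts and was higher in FF. It had 70 and 71 estimated counts in FF1 and FF2 and 27, 28 and 38 in RF1, RF2 and RF3, with exact 95% Poisson intervals of 54.6 to 88.4 for FF1 and 26.9 to 52.2 for RF3. In CPM it stood at 14.4 in FF1 and 25.8 in FF2, against 6.36 in RF1, 8.22 in RF2 and 8.88 in RF3. The groups did not overlap, and the RF hens lay within 1.40-fold of each other. Group averages of 20.1 ± 8.10 CPM (SD, n = 2) for FF and 7.82 ± 1.31 CPM (SD, n = 3) for RF gave 1.35 ± 0.38 (SE) on the log2 scale, or 2.54-fold higher, which became 0.89 without FF2 and 1.71 without FF1. In the RefSeq annotation of the GRCg7b assembly SPEF2, a noncoding gene and a microRNA gene overlap PRLR. Neither SPEF2 nor the noncoding gene was analysed here, the microRNA was listed at 0 in every hen, and the sources do not say whether counting used strand. No annotated gene overlapped the other 4.

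CISH was also set against GHR and STAT5B within each hen. The ratio of CISH to GHR estimated counts, read only from hen to hen, was 0.173 in FF1 and 0.0323 in FF2, against 0.402 in RF1, 1.25 in RF2 and 0.441 in RF3. Against STAT5B, the transcription factor that acts between them, CISH had a ratio of 0.252 and 0.111 in FF1 and FF2 and of 0.338, 0.691 and 0.454 in RF1, RF2 and RF3. Both ratios were chosen after the values were seen, and in both the FF hens lay below the RF hens. CISH was itself chosen on this contrast and its groups did not overlap, so the ratios are no independent result.

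The 5 genes differed in how much hens of the same group varied. The within-group SD of log2 CPM, pooled over both groups, was 1.07 for IGFBP1, 1.02 for IGFBP2 and 0.79 for CISH, against a median of 0.367 over the tested genes. These values were at or above those of 96.5%, 95.8% and 90.4% of tested genes. GHR at 0.50 and PRLR at 0.39 stood at or above 69.97% and 54.1%. In all 5 genes FF2 lay farther from the RF mean than FF1 did.

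Over all genes, 0 of the 5 passed an adjusted p of 0.05 by edgeR's quasi-likelihood test, and 0.0464% of the 4309 tested genes did. By limma-voom 0 of the 5 passed, beside 0.0696% of all tested genes, and by DESeq2 IGFBP1, IGFBP2 and CISH did, beside 1.83%. At an unadjusted p under 0.05 in edgeR stood 1 of the 5 as higher and 3 as lower, beside 4.41% and 4.94% of tested genes. Both FF hens lay above all RF hens for 1 of the 5 and below them for 3, which held for 13.1% and 13.9% of tested genes. Since the 5 were chosen on this contrast, nothing is read from these counts.

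**Figure D3:**
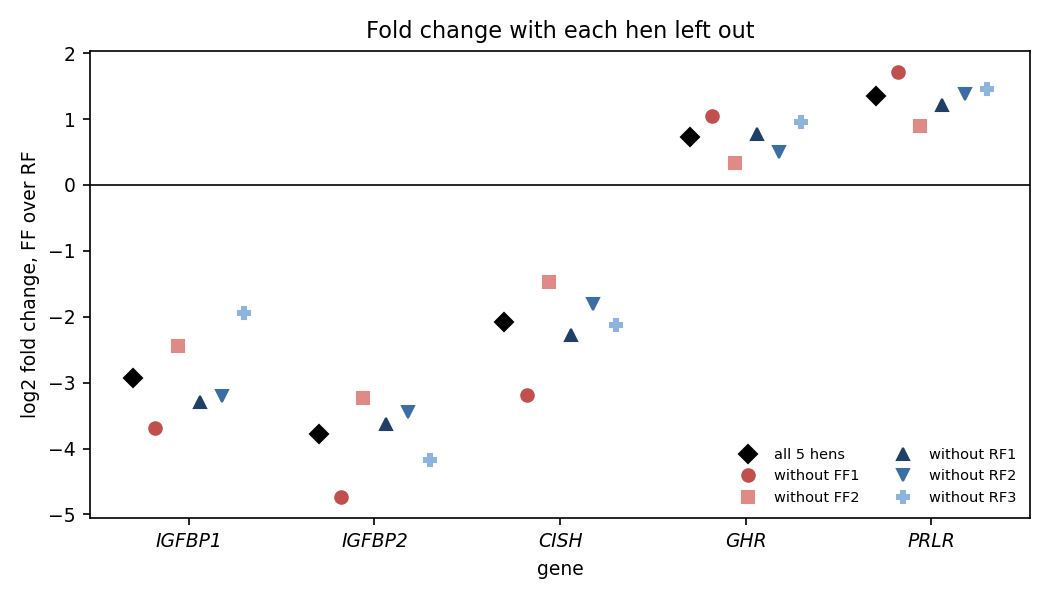
Log2 fold change of FF over RF for the 5 genes with all hens (black) and with each hen left out in turn. No gene crosses 0, which was nearly fixed in advance for all but GHR, because their groups did not overlap. The widest ranges are those of IGFBP1, from -3.69 without FF1 to -1.94 without RF3, and CISH, from -3.18 to -1.47.

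The rest of the pathway was described through 7 lists by role that held 98 further genes, of which 50 had a row in the table and 42 passed the filter. By edgeR's quasi-likelihood test 0 of the 42 passed an adjusted p of 0.05. At an unadjusted p under 0.05 were 3 higher and 3 lower genes, 7.14% each, beside 4.41% and 4.94% of all tested genes. DESeq2 called 1 lower gene (2.38%), beside 1.11% of all tested genes called lower. By limma-voom 0 were called, beside 0.0696% of all tested genes in either direction. Of the 42, 19 lay above a log2 fold change of 0 and the median was -0.02, beside a median of 0.01 over all tested genes. Both FF hens lay below all RF hens in 9 of the 42 (21.4%) and above them in 3 (7.14%), beside 13.9% and 13.1% of tested genes.

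Among ligands, IGF1 was too low to be tested: FF1 had 4 estimated counts and FF2 had 2, and each RF hen was listed at 0. Neither the level of IGF1 in these livers nor a difference between the groups is read from so few counts. IGF2, a growth factor of the same family, stood at 98.3 CPM in FF1 and 33.8 CPM in FF2, against 70.4, 127 and 74.1 CPM in RF1, RF2 and RF3. The groups overlapped, and the log2 fold change of -0.44 ± 0.48 turned to 0.13 without FF2. Prolactin (PRL) was listed at 0 in all hens, and growth hormone (GH) and insulin (INS) had at most 8 and 2 estimated counts.

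Of the other receptors, the IGF1 receptor IGF1R lay at a log2 fold change of -0.52 ± 0.29 and the shared cytokine receptor subunit IL6ST at -0.43 ± 0.26. For IL6ST the FF hens, at 122 and 141 CPM, lay below the RF hens, at 166 to 191 CPM. IGF2R, which clears IGF2 in mammals, lay at 0.10 ± 0.30 and changed sign without FF2 or RF2. The leptin receptor LEPR had 2 to 8 estimated counts per hen and was not tested.

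The kinases and STAT factors downstream of the receptors lay on both sides in mRNA, and their activity as proteins was not measured. JAK2, the kinase bound to GHR and PRLR, stood at 0.30 ± 0.27, with 36.7 and 30.2 CPM in FF against 24.1 to 31.8 CPM in RF. STAT5B stood at 657 CPM in FF1 and 458 CPM in FF2, against 960, 905 and 956 CPM in RF1, RF2 and RF3. All RF hens were close together and above both FF hens, but the difference of -0.75 ± 0.31 on the log2 scale did not pass (adjusted p = 0.521, edgeR quasi-likelihood). JAK1, which serves other cytokine receptors, stood at 355 CPM in FF1 and 799 CPM in FF2, against 377, 207 and 225 CPM in the RF hens. Its log2 fold change of 1.10 ± 0.43 fell to 0.41 without FF2.

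STAT4, which carries interleukin-12 signals in lymphocytes of mammals, had the lowest log2 fold change of the 42 genes. It stood at 5.74 CPM in FF1 and 13.5 CPM in FF2, against 38.8, 24.1 and 30.8 CPM in RF1, RF2 and RF3. The groups did not overlap, and the log2 fold change was -1.74 ± 0.44 (adjusted p = 0.329, edgeR quasi-likelihood). DESeq2 called it at an adjusted p of 0.0259, in a range of 0.0259 to 0.801 over the alternatives (edgeR, limma-voom or DESeq2). The 7 lymphocyte markers summed to 162 and 321 CPM in FF1 and FF2 and to 149, 205 and 180 CPM in RF1, RF2 and RF3, and their part in the STAT4 values was not tested.

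The other tested inhibitors of the SOCS family had fold changes nearer to 0 than that of CISH, a difference that was not tested. CISH had been chosen on this contrast, so nothing is read from that order. SOCS2, which limits growth hormone signalling in mammals, stood at 104 and 108 CPM in FF1 and FF2, against 125, 167 and 125 CPM in RF1, RF2 and RF3. The FF hens lay below the RF hens, with a log2 fold change of -0.38 ± 0.27. SOCS3, an inhibitor induced by interleukin-6 in mammals, was at 142 CPM in RF2 and at 20.1 to 47.2 CPM in the other 4 hens, and its log2 fold change of -0.78 ± 0.88 became 0.80 without RF2. RF2 was also the highest hen for CISH and SOCS2, while each other tested gene of the SOCS family was highest in another hen. The tyrosine phosphatases PTPN2 (-0.96 ± 0.42) and PTPN1 (-0.70 ± 0.31) lay lower in both FF hens than in any RF hen. PIAS1, which restrains cytokine signalling in the nucleus of mammalian cells, lay at 0.93 ± 0.49 and at -0.074 without FF2. None of the 12 passed by edgeR's quasi-likelihood test, at an unadjusted p under 0.05 or by DESeq2.

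**Figure D4:**
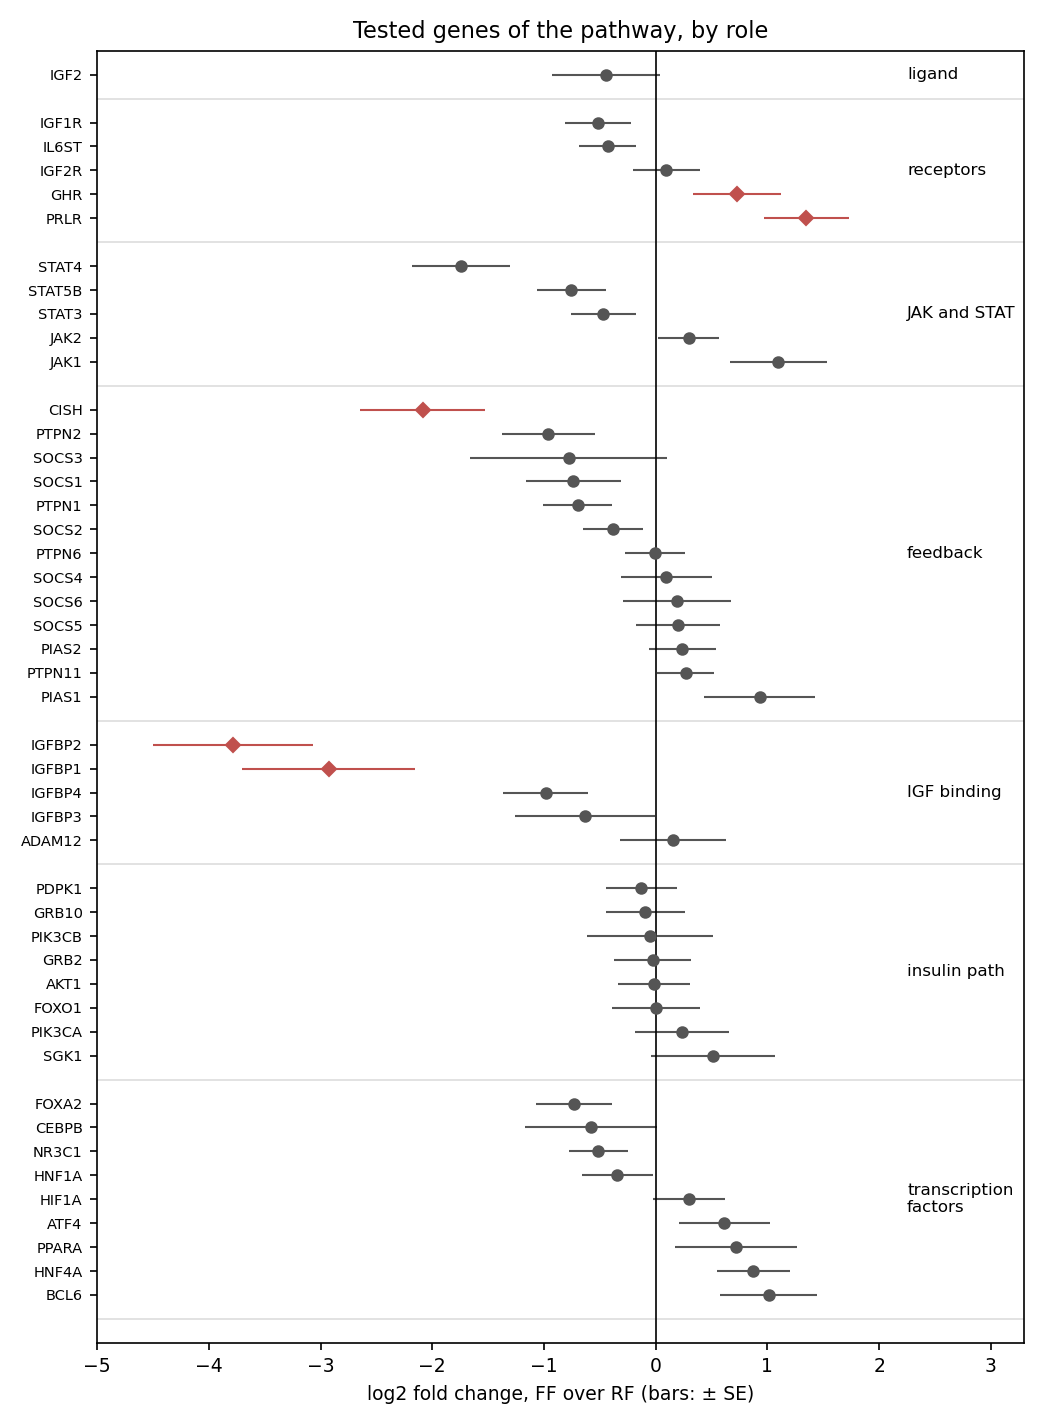
Log2 fold change of FF over RF with its SE for the tested genes of the 7 lists, grouped by role, with the 5 genes of this account as red diamonds and other genes as grey circles, apart from 1 gene that is not shown. The red points of IGFBP2, IGFBP1 and CISH lie left of every grey point shown, and the grey points run from -1.74 (STAT4) to 1.10 (JAK1). The 5 genes were chosen on this contrast, so nothing is read from their place.

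Of the binding proteins, IGFBP4, which the liver also makes and which restrains growth factor action, stood at 841 CPM in FF1 and 548 CPM in FF2, against 1571, 1592 and 959 CPM in RF1, RF2 and RF3. As for IGFBP2, RF1 and RF2 were the high pair and RF3 the lowest RF hen, still above both FF hens. Its log2 fold change was -0.98 ± 0.38 (adjusted p = 0.509, edgeR quasi-likelihood). IGFBP3, the neighbour of IGFBP1 in the RefSeq annotation, had 9 to 26 estimated counts and a log2 fold change of -0.63 ± 0.63, with RF3 at 2.10 CPM the lowest of the 5 hens, where IGFBP1 had its highest value. ADAM12, which can cut binding proteins, lay at 0.15 ± 0.47 and changed sign without FF2 or RF2. IGFBP5, the neighbour of IGFBP2, was not analysed here.

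Genes of insulin signalling inside the cell lay on both sides of 0 in mRNA, and the activity of their proteins was not measured. The 8 tested members ranged from -0.13 ± 0.32 for the kinase PDPK1 to 0.51 ± 0.56 for SGK1, around a median of -0.02 on the log2 scale. By edgeR's quasi-likelihood test 0 of the 8 passed, 0 stood at an unadjusted p under 0.05, and DESeq2 and limma-voom called 0. FOXO1, which drives IGFBP1 transcription in mammals and is held back by insulin, lay at 0.0018 ± 0.39, and its sign changed with the setting. It stood at 18.1 and 35.6 CPM in FF1 and FF2, against 34.1, 26.1 and 19.4 CPM in RF1, RF2 and RF3. Within RF, FOXO1 was lowest in RF3, the hen with the most IGFBP1, and a link between these genes was not tested. The kinase subunit PIK3CA (0.24 ± 0.42), PDPK1 and SGK1 also changed sign when 1 FF hen was left out. INSR, IRS1 and IRS2 were not analysed here.

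Of 9 tested transcription factors that act on IGFBP1 or on the growth hormone response in mammals, 5 lay above 0. HNF4A, a regulator of liver identity, stood at 158 CPM in FF1 and 201 CPM in FF2, against 116, 64.6 and 113 CPM in RF1, RF2 and RF3. Both FF hens lay above the RF hens, 0.87 ± 0.33 apart on the log2 scale, without passing (adjusted p = 0.503, edgeR quasi-likelihood). BCL6, a repressor whose mRNA growth hormone lowers in rodent liver, stood at 258 CPM in FF2 and at 69.0 to 98.1 CPM in the other 4 hens, and its log2 fold change of 1.01 ± 0.43 fell to 0.09 without FF2. FOXA2, a factor that binds the IGFBP1 promoter in mammals, lay at -0.73 ± 0.34, with RF3 at 61.2 CPM below FF1 at 64.2 CPM.

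Across the 5 hens, profiles were set side by side as log2 CPM centred on each gene's own mean, and likeness was the root mean square (RMS) difference over the 5 hens. Of the pairs among the 5 genes, GHR and PRLR had the smallest difference at 0.437, and IGFBP2 and PRLR the widest at 2.66. The measure is not scaled to how much a gene varies, and GHR and PRLR were the least variable of the 5, with an RMS of 0.533 and 0.687 about their own means, against 1.27 for CISH, 1.57 for IGFBP1 and 2.00 for IGFBP2. CISH lay nearer to each binding protein (0.808 for IGFBP1 and 0.981 for IGFBP2) than these did to each other (1.46). The profiles include the difference between groups on which the 5 genes were chosen, so nothing is read from this order.

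Among tested genes outside the lists, the smallest differences from GHR were those of CFL2, an actin-binding protein, at 0.0858 and USP6NL, which acts on small GTPases, at 0.0939. PRLR was matched most closely by MZT1, a part of microtubule-nucleating complexes, at 0.163 and by THYN1 at 0.183. CISH was nearest to C18H17ORF106 at 0.220 and to the membrane protein gene TM4SF1 at 0.332. Some of these matches rest on few counts. In FF2, C18H17ORF106 stood at 2.18 CPM and TM4SF1 at 0.364 CPM, and MZT1 stood at 1.65 CPM in RF1.

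The binding proteins, which varied most, had larger differences from their nearest genes. For IGFBP1 these were CREM, a transcription factor of cyclic AMP response, at 0.663 and GCH1, which catalyses the first step towards tetrahydrobiopterin, at 0.690. CREM stood at 19.5 and 17.8 CPM in FF1 and FF2 and at 33.4, 60.5 and 114 CPM in RF1, RF2 and RF3, with RF3 the highest hen as for IGFBP1. For IGFBP2 a near gene was CIDEC, a lipid droplet protein already counted in the adipocyte sum above, at 0.693. CIDEC stood at 69.5 and 40.0 CPM in FF1 and FF2 and at 405, 426 and 130 CPM in RF1, RF2 and RF3, with RF3 the lowest RF hen as for IGFBP2. With so many genes set against 5 hens, close matches are given only as a description.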

How the data were processed

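The deposited table holds estimated counts per gene symbol, 1 column per hen. Column totals differ between hens, which does not settle whether the authors had scaled the values. FastQC, TopHat2 2.0.13, Cuffdiff 2.2.1, edgeR and the build galGal4 are named, with no role or order, per the submitters' processing notes. Neither the annotation nor the handling of multiply mapped reads is stated. Values were rounded to whole numbers (51 of 6286 entries were not whole, none of them among the 5 genes).

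Genes kept by filterByExpr (minimum count 10) were TMM-scaled (trimmed mean of M values), and edgeR 4.0.16 in R 4.3.3 was used for testing (quasi-likelihood, two-sided, feeding group as single term), with Benjamini-Hochberg adjustment and a threshold of 0.05. Alternatives were DESeq2 1.42.0, limma-voom (limma 3.58.1), other scalings and filters, each hen left out, and a replicate block. Each SE given was the absolute log2 fold change divided by the square root of the F statistic of the edgeR test. It was not an SE reported by the fit. The edgeR, DESeq2 and limma-voom tests at their main settings were checked on simulated counts, and the other steps were not.

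The 5 genes, the lists, tests and alternatives were chosen with earlier results of these data known. Some genes under the rules that follow are not reported here. Named from each list were genes past the threshold or else up to 3 with the smallest p, 12 key genes where measured, and for each of the 5 genes the 2 nearest profiles (mean log2 CPM at least 1). PRL, GH, INS, FASN and the sums and ratios between genes fall outside these rules and were chosen after their values were seen. With 2 and 3 hens, p-values and SDs rest on few animals. Poisson and binomial intervals cover counting error only, and hold only if the estimated counts are unscaled read counts.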

Additional observations from a re-analysis of the deposited data

How the results depend on the processing

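The log2 fold changes of the 5 genes kept their sign in all 13 alternatives. The 5 were chosen on this contrast, and only GHR had groups that overlapped. For the others, leaving out a hen could hardly change the sign, so nothing is read from the kept signs. Leaving out single hens gave -4.73 to -3.23 for IGFBP2, -3.69 to -1.94 for IGFBP1, -3.18 to -1.47 for CISH, 0.34 to 1.04 for GHR and 0.89 to 1.71 for PRLR, and the fits with 1 FF hen assume that it varies like the others. Scaling by library totals alone moved the median gene by 0.10 and gave -3.69, -2.81, -1.99, 0.84 and 1.44 in that order.

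Over all genes 2 passed, against 1 with the filter of 5 CPM, 6 with no filter, 79 by DESeq2 and 0 to 8 when hens were left out singly, the 0 being without RF1, RF2 or FF2 (edgeR quasi-likelihood, with 235, 236 and 311 genes at an unadjusted p under 0.05). The pathway count of 0 became 1 by DESeq2. With the replicate number as a block, 6 genes passed, and IGFBP2, IGFBP1, CISH, GHR and PRLR stood at -4.33, -2.04, -2.28, 0.95 and 1.41. In that fit RF3 was alone in its block and so added nothing to the difference between groups. The fit left 1 residual degree of freedom, so its count of genes has little footing. The numbers are names of different hens. Deviations of same-numbered hens from their group means correlated across genes at -0.143 and -0.355. With 2 FF hens these deviations mirror each other, so the other FF hen has the same value with opposite sign. The correlations therefore cannot show whether the numbers pair hens.

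Signs changed for FOXO1 with limma-voom (-0.078), no filter (-0.0073) and the block (-0.24). With single hens left out, ranges crossing 0 were -0.54 to 0.42 for FOXO1, -0.39 to 0.59 for ADAM12, -1.42 to 0.13 for IGF2, -0.10 to 0.28 for IGF2R, -0.58 to 0.22 for PDPK1, -0.074 to 1.53 for PIAS1, -0.42 to 0.71 for PIK3CA, -0.71 to 1.16 for SGK1 and -1.40 to 0.80 for SOCS3. The causes were not tested. Depth limits low counts, such as the 36 of IGFBP2 in FF2 (Poisson interval 25.2 to 49.8) and the 27 of PRLR in RF1 (17.8 to 39.3).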
